A study of Homo sapiens with 20 samples.

Results

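RUNX1 binding was examined around 10 genes of the Toll-like receptor system: the receptors TLR1, TLR2, TLR4, TLR5, TLR6 and TLR8, the lipopolysaccharide co-receptors CD14 and LY96, the adaptor MYD88 and the inhibitory kinase family member IRAK3. All peaks of the count table within 50 kb of the GRCh38 RefSeq span of one of these genes were taken, which gave 30 of 26642 peaks. TLR1 and TLR6 lie side by side and shared 3 peaks. The other loci held 2 peaks (TLR2, TLR4 and TLR5), 3 (LY96), 4 (TLR8, CD14 and MYD88) or 6 (IRAK3). The peaks of each gene were chosen by position alone, but the genes were chosen with earlier results of these data known. A peak close to a gene need not act on it.

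Chromatin immunoprecipitation with sequencing (ChIP-seq) against the transcription factor RUNX1 was performed in THP-1 cells, an established line from a human acute monocytic leukemia. The cells carried a doxycycline-inducible shRNA cassette that targeted the transcription factor PU.1 (knockdown, n = 6 libraries) or a scramble sequence (control, n = 6 libraries), and both cassettes were induced with doxycycline. The work was done in 2 experimental rounds, with 3 control against 2 knockdown libraries in batch 1 and 3 against 4 in batch 2. All libraries came from a single parental cell line, but the cells with each cassette were separate derivatives of it. Knockdown therefore cannot be told apart from other differences between these derivatives. Neither PU.1 nor any transcript was measured by this assay, so the knockdown and the monocytic identity of the cells could not be checked here.

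Toll-like receptors sense conserved microbial molecules, at the cell surface for lipopeptides, lipopolysaccharide and flagellin and in endosomes for nucleic acids. Most of them signal through MYD88, which recruits kinases of the IRAK family and leads to activation of NF-kB, and IRAK3 (IRAK-M) restrains this signal. Monocytes and macrophages express many of these receptors together with CD14, and PU.1 and RUNX1 are both regulators of myeloid genes.

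In-peak reads numbered 630247 to 1199004 in control and 938745 to 1719840 in knockdown libraries, of which 0.104% to 0.134% lay in the 30 peaks. Values below are normalised read counts, reads over a peak divided by the size factor of the library. The median mean value of the 30 peaks was 28.4 (13.5 to 171), against 31.2 over all peaks, so that counting error was sizeable at single peaks (median SE of a log2 fold change 0.22). In bulk chromatin, fewer cells with a bound site and less binding per cell cannot be told apart.

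The RefSeq promoter table held 8 of the 10 genes (all but TLR1 and LY96), and of these 8 IRAK3 alone had a peak over its promoter. The 250 bases before the IRAK3 start site (chromosome 12, 66188964 to 66189213, plus strand, GRCh38.p14) lie within IRAK3 peak 2. They are shown because no other of these 8 promoters had a peak over it. TLR1/TLR6 peak 3 spanned an end of TLR1, whose promoter, like that of LY96, could not be checked. The capitals mark the reverse complement of the RUNX-type motif TGCGGT.
IRAK3 promoter: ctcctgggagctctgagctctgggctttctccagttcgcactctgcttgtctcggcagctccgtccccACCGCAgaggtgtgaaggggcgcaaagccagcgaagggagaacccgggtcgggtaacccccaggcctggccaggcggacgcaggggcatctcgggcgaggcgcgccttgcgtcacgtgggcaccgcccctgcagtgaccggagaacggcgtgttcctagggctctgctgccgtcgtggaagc
TGCGGT was searched on both strands in promoter windows that run from 250 bases before to 50 bases after the start site, and 7.29% of 35116 windows held it. The other RUNX-type motif, TGTGGT, stood in 13.1% of all windows and in 0 of the 8 members. GAGGAA, the core of a PU.1-type ETS site, stood in 27.9% of all windows and in those of TLR4, TLR6, CD14 and MYD88, with 4 matches in TLR4. The IRF-type motif (GAAA, any 2 bases and GAAA) stood in 3.57% of all windows and, among the members, in that of MYD88.

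RUNX1 binding at every peak of these loci was compared between knockdown and control. Of the 30 peaks, 12 changed (40%; DESeq2, adjusted p under 0.05 and fold change over 1.1, called gained or lost below), where 42% of all 26642 peaks did. RUNX1 binding was gained at 3 peaks, near TLR5 and TLR8, where 21.3% of all peaks were gained, and lost at 9 peaks, near TLR1/TLR6, TLR4, TLR8, CD14, LY96, MYD88 and IRAK3, where 20.7% of all peaks were lost. The share that changed was thus near that of all peaks. Binding was lower upon knockdown at 23 of the 30 peaks (76.7%, against 52.0% of all peaks). Without 1 library this number was 20 to 24. The median log2 fold change was -0.21, against -0.02 over all peaks.

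**Figure D1:**
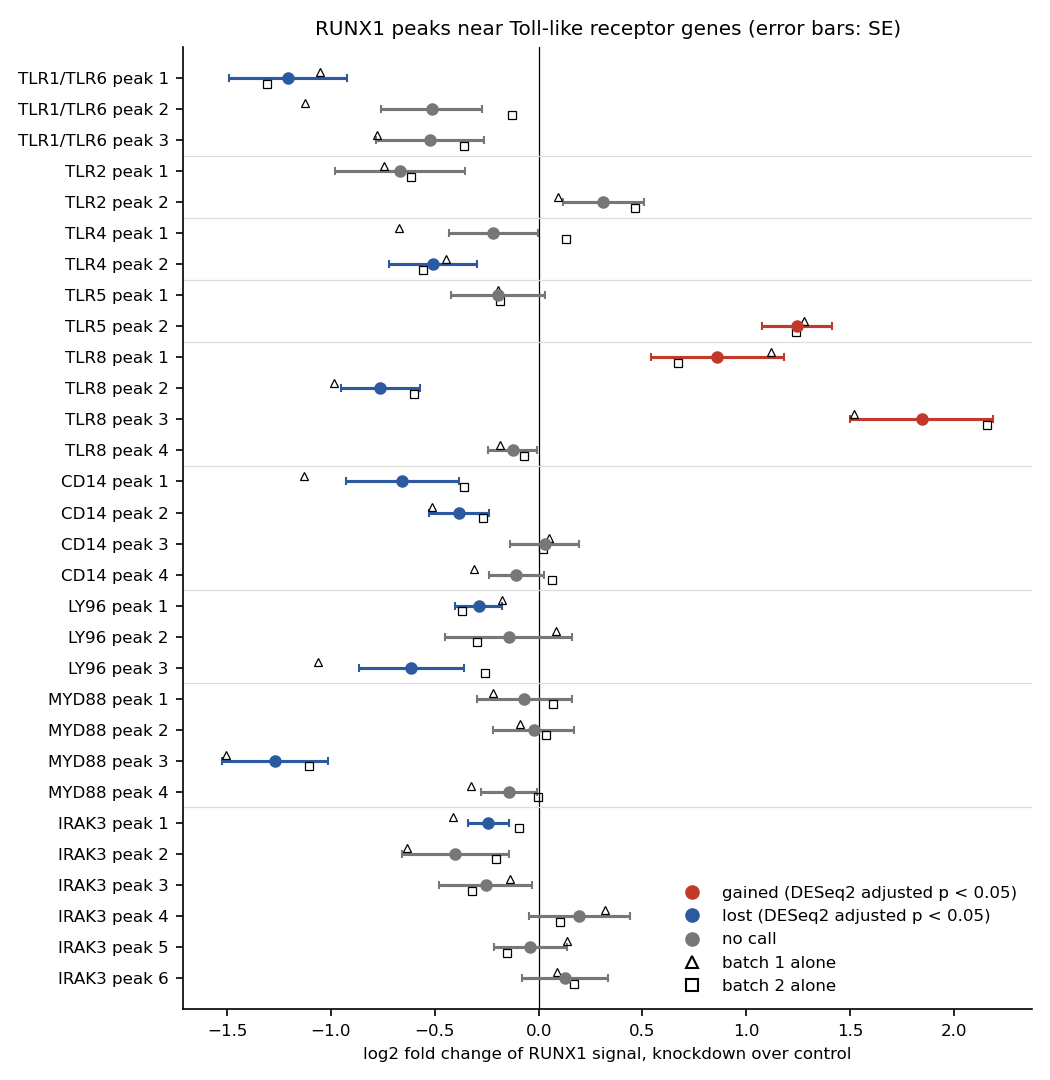
Log2 fold change of RUNX1 binding, knockdown over control, for each of the 30 peaks (circles, with SE; triangles, batch 1 alone; squares, batch 2 alone). The 3 gained peaks lie near TLR5 and TLR8, and the 9 lost peaks are spread over 7 loci.

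Most of the called peaks lay outside the genes themselves. Only 8 of the 30 peaks overlapped a member gene, and of these only LY96 peak 3 was called. Ends of protein-coding genes were within 1 kb of 36.7% of the peaks, against 24.4% of all peaks, some of them at neighbouring genes such as ELOC and TMBIM4. All 12 called peaks had the same sign in both batches, as had 24 of the 30 and 21307 of all 26642 peaks. The calls came from the fit of both batches together, which favours the same sign in both. In batch 1 alone, 2 of the 30 peaks were called (TLR5 peak 2 gained, MYD88 peak 3 lost), where 12% of all peaks were (5.38% gained, 6.61% lost). With edgeR, batch 1 alone gave 10 calls (2 gained, 8 lost), where 27.3% of all peaks were called (13.2% gained, 14.1% lost). In batch 2 alone, 4 were called (TLR5 peak 2 and TLR8 peak 3 gained, TLR1/TLR6 peak 1 and MYD88 peak 3 lost), where 25.8% of all peaks were (12.8% gained, 13.1% lost). Using edgeR on both batches, the same 12 peaks were called, where 47.1% of all peaks were (24.1% gained, 22.9% lost). A difference between batches in the effect of knockdown was called at 0 of the 30 peaks and at 0 of all peaks (adjusted p under 0.05, DESeq2 and edgeR). With 3 control against 2 knockdown libraries in batch 1, such a difference could be missed at single peaks. At an unadjusted p under 0.05, DESeq2 gave 0 of the 30 (2.51% of all peaks) and edgeR 2 of the 30 (5.34% of all peaks).

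At 5 of the 30 peaks (16.7%), the control and knockdown libraries did not overlap within either batch, below the 28.3% of all peaks without overlap (14.4% with knockdown above, 13.9% with knockdown below). These were, all of them called, TLR1/TLR6 peak 1, TLR5 peak 2, TLR8 peak 2, TLR8 peak 3 and MYD88 peak 3, with 2 above and 3 below, and they stayed called whichever 1 of the 12 libraries was left out. The other 7 calls were each lost in at least 1 of the fits without 1 library. The number of called peaks fell from 12 to 7 without control replicate 2, knockdown replicate 1, knockdown replicate 2 or knockdown replicate 4, each left out alone, while 36.6% to 40.2% of all peaks were still called in these 4 fits.

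**Figure D2:**
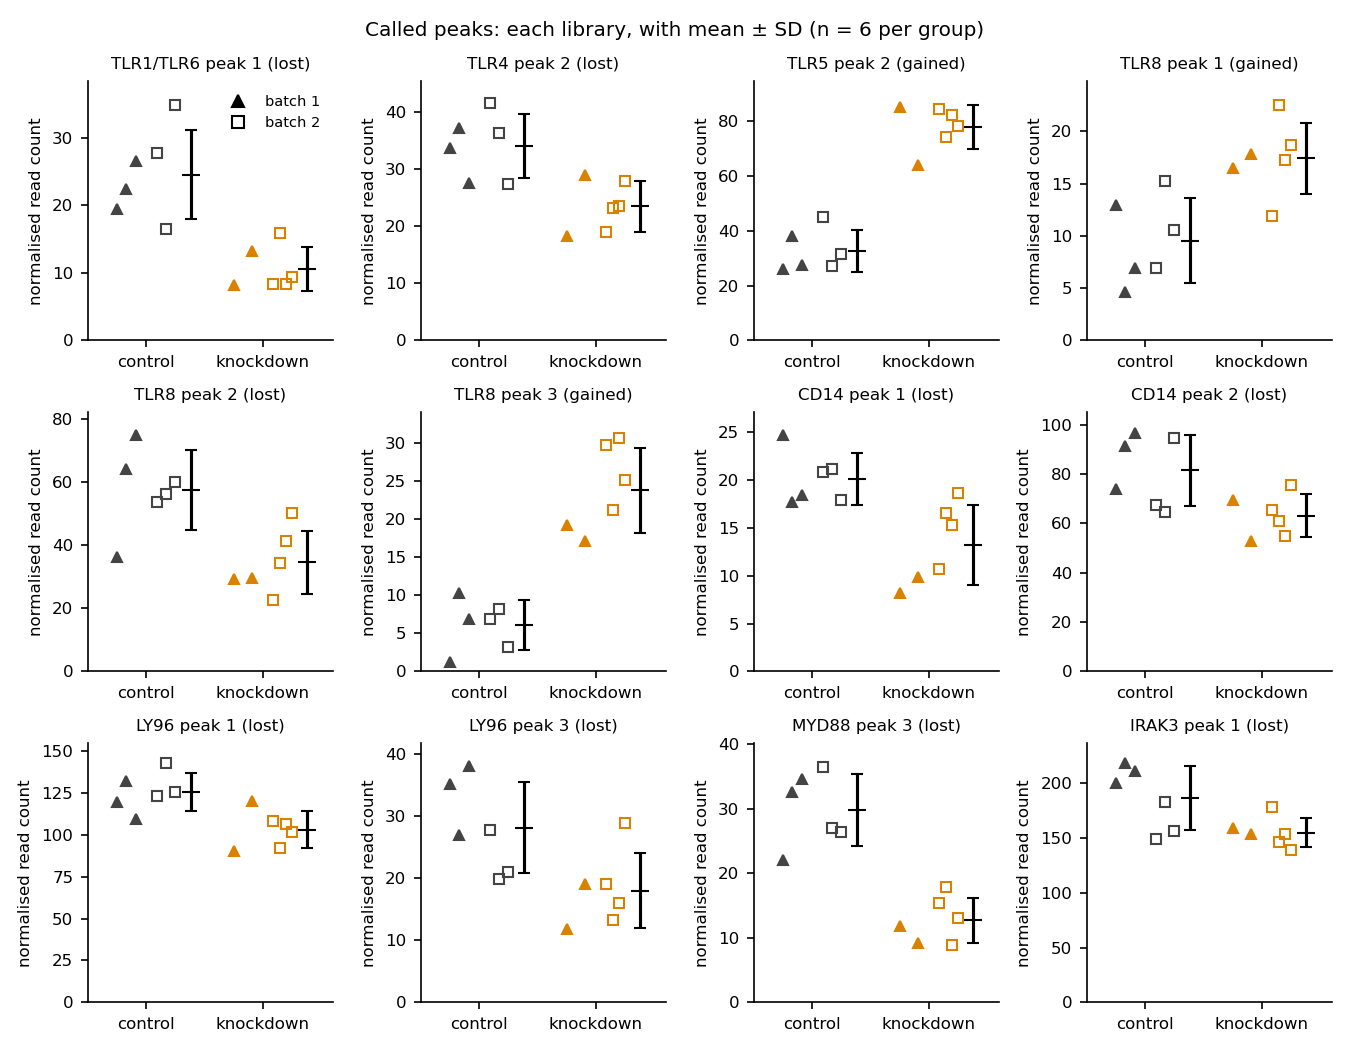
Normalised read count of each library at the 12 called peaks, with mean ± SD (n = 6 per group; triangles, batch 1; squares, batch 2). Control and knockdown separate within both batches at TLR1/TLR6 peak 1, TLR5 peak 2, TLR8 peaks 2 and 3 and MYD88 peak 3, and overlap in at least 1 batch at the other 7.

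The surface receptors of lipopeptides were examined first. TLR2 pairs with TLR1 to bind triacylated and with TLR6 to bind diacylated lipopeptides. TLR1/TLR6 peak 1 (chromosome 4, 38785720 to 38786426) lay 1143 bp beyond the lower-coordinate end of TLR1. Its normalised read count was 16.4, 24.4 and 34.8 (lowest, median and highest) in control and 8.22, 8.82 and 15.8 in knockdown libraries. Every knockdown library was thus below every control library. Binding fell from 24.5 ± 6.56 to 10.5 ± 3.23 (SD over 6 libraries each, log2 fold change -1.21 ± 0.28 SE, adjusted p = 0.000123 by DESeq2), with -1.06 in batch 1 (adjusted p = 0.188) and -1.31 in batch 2 (adjusted p = 0.00781).

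The other peaks of this locus lay 163 bp apart at the upper end of TLR1 and overlapped the gene. TLR1/TLR6 peak 2 (38804528 to 38805212) ranged from 17.3 to 35.1 in control (median 24.8) and from 9.13 to 27.0 in knockdown libraries (median 21.3), and its groups overlapped. Its log2 fold change was -0.52 ± 0.24 (adjusted p = 0.0769), and it passed the threshold only without control replicate 4 (adjusted p = 0.0272). TLR1/TLR6 peak 3 (38805376 to 38806038) ranged from 15.8 to 27.8 in control (median 19.97) and from 9.13 to 23.8 in knockdown libraries (median 14.5), again with overlap, and had a log2 fold change of -0.52 ± 0.26 (adjusted p = 0.0950).

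At TLR2, the shared partner of both receptors, neither of the 2 peaks was called, and both lay upstream of the gene. TLR2 peak 1 (chromosome 4, 153655739 to 153656527, 27.8 kb away) held 11.2, 22.7 and 28.8 in control and 2.38, 14.3 and 17.2 in knockdown libraries, with overlapping groups and a log2 fold change of -0.67 ± 0.31 (adjusted p = 0.0731). This peak crossed the threshold without control replicate 2 (adjusted p = 0.0250), control replicate 5 (0.0448) or knockdown replicate 5 (0.0494). It lay nearer to TMEM131L (19028 bp) than to TLR2. TLR2 peak 2 (153665920 to 153666710, 17.6 kb away) held 19.1, 27.3 and 38.7 in control and 25.6, 40.3 and 48.2 in knockdown libraries, a log2 fold change of 0.31 ± 0.20 (adjusted p = 0.198).

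TLR4, the lipopolysaccharide receptor, binds its ligand together with LY96 (MD-2), after CD14 has transferred it. TLR4 peak 2 (chromosome 9, 117725287 to 117726137), 552 bp past the end of TLR4, held 27.4, 35.1 and 41.6 in control and 18.3, 23.4 and 29.0 in knockdown libraries, and the groups overlapped narrowly. Binding fell from 34.0 ± 5.62 to 23.5 ± 4.42 (log2 fold change -0.51 ± 0.21, adjusted p = 0.0387 by DESeq2). The call held in 4 of the 12 fits without 1 library (without control replicate 3 or 6 or knockdown replicate 2 or 6), with adjusted p between 0.0261 and 0.139 over the 12. The other peaks within 5 Mb either side had a median log2 fold change of -0.13, and relative to it the call was lost (adjusted p = 0.134). TLR4 peak 1 (117718000 to 117718595), within the gene, was not called (log2 fold change -0.22 ± 0.21, adjusted p = 0.430).

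At LY96, 2 of the 3 peaks were lost. LY96 peak 3 (chromosome 8, 74051929 to 74052697), inside the gene, held 19.9, 27.4 and 38.02 in control and 11.9, 17.5 and 28.9 in knockdown libraries, with overlap. Its binding fell from 28.1 ± 7.28 to a mean of 18 ± 6.09 (log2 fold change -0.61 ± 0.25, adjusted p = 0.0375 by DESeq2), and the call held only without control replicate 2, 5 or 6 or knockdown replicate 3 or 6 (adjusted p from 0.00852 to 0.193 over the 12 fits without 1 library). LY96 peak 1 (73970733 to 73973172) overlapped the neighbouring gene ELOC, a subunit of the elongin complex, 18.2 kb from LY96.

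LY96 peak 1 held 109.5, 124 and 143 in control and 90.4, 104 and 119.8 in knockdown libraries. All control libraries but control replicates 1 and 3 were above every knockdown library. Binding fell from 125 ± 11.4 to 103 ± 11.01 (log2 fold change -0.29 ± 0.11, adjusted p = 0.0298 by DESeq2), and this call was lost without control replicate 2, 5 or 6 or knockdown replicate 1, 4 or 6 (adjusted p up to 0.125). Peaks within 5 Mb either side of LY96 had a median log2 fold change of -0.20, and relative to it neither call held (adjusted p = 0.577 for peak 1 and 0.187 for peak 3). LY96 peak 2 (73973273 to 73973916), 100 bp from peak 1, held 11.2, 14.5 and 24.2 in control and 8.59, 13.8 and 24.9 in knockdown libraries, with nearly the same range in both groups (log2 fold change -0.14 ± 0.31, adjusted p = 0.740).

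CD14 lies inside the RefSeq span of TMCO6, which also covered or touched its 4 peaks. The peak nearest to CD14, CD14 peak 3 (chromosome 5, 140638715 to 140639849, 5.0 kb upstream), held 36.4, 50.02 and 55.9 in control and 32.1, 51.4 and 58.5 in knockdown libraries. Its groups overlapped over most of their range, and its log2 fold change was 0.03 (95% interval -0.30 to 0.36; adjusted p = 0.912). The peaks on the other side of CD14 were both lost.

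CD14 peak 2 (140611789 to 140612803), 18.9 kb away, held 64.5, 82.6 and 96.8 in control and 52.7, 63.0 and 75.5 in knockdown libraries. The lower controls lay within the range of the knockdown libraries, and binding fell from 81.5 ± 14.4 to 63.1 ± 8.73 (log2 fold change -0.38 ± 0.15, adjusted p = 0.0234 by DESeq2). The call was lost without control replicate 2, 3 or 6 or knockdown replicate 2 or 5 (adjusted p up to 0.151). CD14 peak 1 (140602866 to 140603477), 28.3 kb away, held 17.7, 19.6 and 24.7 in control and 8.22, 12.99 and 18.6 in knockdown libraries, with only knockdown replicate 6 within the control range.

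Binding at CD14 peak 1 fell from 20.1 ± 2.68 to 13.2 ± 4.17 (log2 fold change -0.66 ± 0.27, adjusted p = 0.0393 by DESeq2), a call that held only without control replicate 6 or knockdown replicate 4 or 6 (adjusted p from 0.0327 to 0.131 over the 12 fits). CD14 peak 4 (140646535 to 140648416), the highest of the locus, overlapped NDUFA2 and IK besides TMCO6. It held 86.7, 93.8 and 136.8 in control and 79.7, 96.0 and 104.5 in knockdown libraries, with overlapping groups and a log2 fold change of -0.11 ± 0.13 (adjusted p = 0.545).

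The flagellin receptor TLR5 had the call with the smallest adjusted p of the 30. TLR5 peak 2 (chromosome 1, 223190121 to 223190920) lay 46.9 kb upstream of TLR5 and 29911 bp from its nearest protein-coding gene, SUSD4. It held 26.0, 29.6 and 45.1 in control and 63.9, 80.2 and 84.9 in knockdown libraries. All 6 knockdown libraries were far above all 6 control libraries. Binding rose from 32.6 ± 7.59 to 77.9 ± 8.02, a 2.37-fold gain (log2 fold change 1.25 ± 0.17, adjusted p = 5.85e-12 by DESeq2), with 1.28 in batch 1 (adjusted p = 0.00429) and 1.24 in batch 2 (adjusted p = 3.61e-06). TLR5 peak 1 (223081036 to 223081926), 27.5 kb downstream, held 22.3, 27.5 and 32.8 in control and 13.98, 25.1 and 36.8 in knockdown libraries. The knockdown range enclosed the control range, and the log2 fold change was -0.20 ± 0.23 (adjusted p = 0.513).

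TLR8, an endosomal receptor of single-stranded RNA, was the only locus with both gained and lost peaks. TLR8 peak 3 (chromosome X, 12943121 to 12943643) lay 19952 bp past TLR8 and overlapped TLR8-AS1, a non-coding RNA gene. It held 1.30, 6.93 and 10.2 in control and 17.1, 23.2 and 30.6 in knockdown libraries. Control libraries held only 1 to 11 reads each at this peak, and every knockdown library was above all of them. Peaks were called in each condition and then merged, so this peak may have entered through the knockdown libraries alone. Such an entry would favour both the separation and a large fold change. Binding rose from 6.13 ± 3.31 to 23.8 ± 5.58 (log2 fold change 1.85 ± 0.34, adjusted p = 8.90e-07 by DESeq2), with 1.52 in batch 1 (adjusted p = 0.139) and 2.16 in batch 2 (adjusted p = 0.000154).

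On the other side of TLR8, the neighbouring receptor gene TLR7, whose product also senses single-stranded RNA, held a pair of peaks 1392 bp apart that moved in opposite directions. TLR8 peak 2 (12890264 to 12891031), 15.6 kb from TLR8, held 36.4, 58.2 and 74.9 in control and 22.6, 31.99 and 50.3 in knockdown libraries. Within each batch every knockdown library was below every control library, while the pooled ranges overlapped. Binding fell from 57.6 ± 12.8 to 34.6 ± 9.92 (log2 fold change -0.76 ± 0.19, adjusted p = 0.000345 by DESeq2), with -0.99 in batch 1 (adjusted p = 0.0547) and -0.60 in batch 2 (adjusted p = 0.0621).

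TLR8 peak 1 (12888331 to 12888871), 17.7 kb from TLR8, held 4.65, 8.73 and 15.2 in control and 11.9, 17.5 and 22.5 in knockdown libraries. Only knockdown replicate 3 lay within the control range, and binding rose from 9.54 ± 4.07 to 17.4 ± 3.43 (log2 fold change 0.86 ± 0.32, adjusted p = 0.0204 by DESeq2). This call was lost without control replicate 2 or 4 or knockdown replicate 2 or 4 (adjusted p from 0.0568 to 0.0722). The ratio of reads at peak 2 to peak 1 was 2.80 to 13.8 in control and 1.53 to 2.70 in knockdown libraries. This pair was picked for its opposite calls, so the ratio restates them and adds no separate result. In control libraries it rests on 4 to 13 reads at peak 1. TLR8 peak 4 (12955752 to 12957247), the highest of the locus, held 92.3, 101 and 128 in control and 86.2, 100.2 and 109.0 in knockdown libraries, with overlap and no call (log2 fold change -0.13 ± 0.12, adjusted p = 0.408). It lay nearer to TMSB4X (17863 bp) than to TLR8 (32.6 kb).

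**Figure D3:**
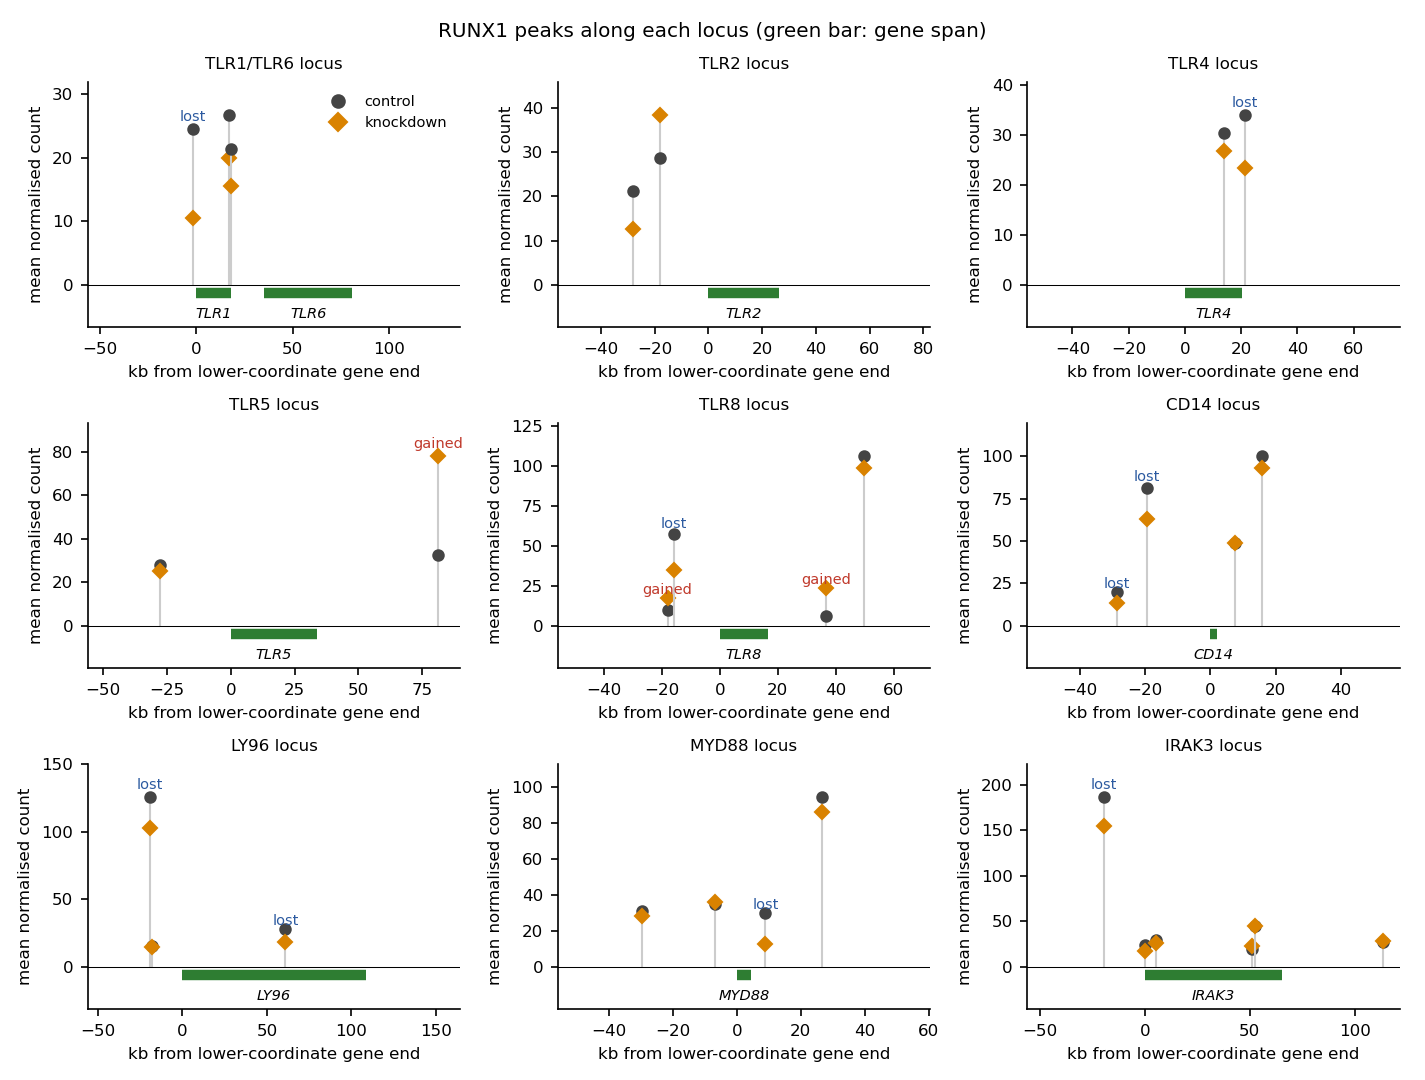
Mean normalised read count of each peak in control (circles) and knockdown (diamonds) libraries along the 9 loci (n = 6 per group), by distance in kb from the lower-coordinate end of the gene (green bars: gene spans). Called peaks are marked gained or lost, and the gained peaks of TLR5 and TLR8 lie outside the drawn gene spans.

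MYD88, the adaptor shared by most of these receptors, had 1 lost peak among its 4. MYD88 peak 3 (chromosome 3, 38147269 to 38147908), 4247 bp past the end of MYD88 and closer to it than to any other protein-coding gene, held 22.1, 29.8 and 36.4 in control and 8.92, 12.5 and 17.8 in knockdown libraries. The groups did not overlap. Binding fell from 29.8 ± 5.54 to 12.7 ± 3.495, 2.41-fold lower (log2 fold change -1.27 ± 0.26, adjusted p = 5.26e-06 by DESeq2), with -1.50 in batch 1 (adjusted p = 0.0272) and -1.11 in batch 2 (adjusted p = 0.0116).

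The other MYD88 peaks lay in the neighbouring genes DLEC1 (peak 1), ACAA1 (peak 2) and OXSR1 (peak 4) and were not called, with log2 fold changes of -0.07, -0.02 and -0.14. MYD88 peak 4 (38164521 to 38166393), the highest of the locus, held 77.2, 91.9 and 117.5 in control and 70.3, 85.5 and 105.7 in knockdown libraries (adjusted p = 0.405). Its groups overlapped over most of their range.

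IRAK3, which restrains MYD88 signaling, had the most peaks of the loci, and 4 of its 6 overlapped the gene. IRAK3 peak 2 (chromosome 12, 66188784 to 66189925), the promoter peak whose sequence is given above, held 15.2, 21.3 and 41.6 in control and 13.98, 17.5 and 23.8 in knockdown libraries. Apart from control replicates 1 and 6, all control libraries lay within the knockdown range (log2 fold change -0.40 ± 0.26, 95% interval -0.91 to 0.11, adjusted p = 0.210). Peaks 3 to 5, further into the gene, and peak 6, in HELB 47.5 kb away, were not called, with log2 fold changes from -0.26 to 0.20.

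The only call of the locus, IRAK3 peak 1 (66168958 to 66170627), overlapped TMBIM4, 18.6 kb upstream of IRAK3. It had the highest level of the 30 peaks, 102.1 normalised reads per kb of peak, against 18.3 per kb at the IRAK3 promoter. It held 149, 192 and 219 in control and 139, 153.5 and 178 in knockdown libraries, and control replicates 4 and 6 lay within the knockdown range. Binding fell from 186 ± 28.8 to 155 ± 13.4 (log2 fold change -0.24 ± 0.10, adjusted p = 0.0370 by DESeq2), a call that held only without control replicate 1, 4 or 6 or knockdown replicate 3 (adjusted p from 0.0143 to 0.176 over the 12 fits). The log2 fold change was -0.41 in batch 1 and -0.09 in batch 2.

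Across the 30 peaks, log2 fold changes ranged from -1.27 (MYD88 peak 3) to 1.85 (TLR8 peak 3). Calls over 2-fold were made at 4 of the 30 peaks (13.3%), where 17.1% of all peaks had one, and these were TLR1/TLR6 peak 1, TLR5 peak 2, TLR8 peak 3 and MYD88 peak 3. At the edge of the 50 kb rule, the last peak inside was IRAK3 peak 6 at 47.5 kb (log2 fold change 0.13) and the first outside lay 52.9 kb from TLR4 (log2 fold change -1.76).

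**Figure D4:**
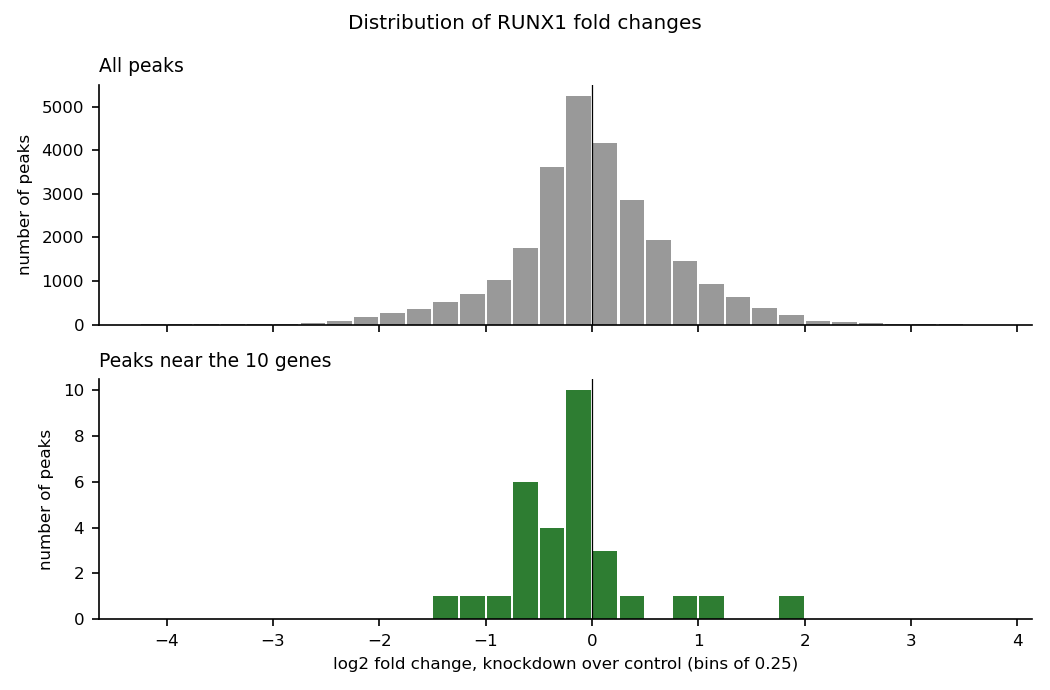
Number of peaks by log2 fold change, knockdown over control, in bins of 0.25, for all 26642 peaks (top) and the 30 peaks near the 10 genes (bottom). The 30 peaks have a median of -0.21 and all peaks a median of -0.02.

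The rest of the pathway was read from a list of 29 further genes, including other receptors, adaptors, kinases, ubiquitin ligases, chaperones and inhibitors. Of these, 27 had a peak of their own within 50 kb, while TLR3 had none and the peaks near TLR7 were those counted with TLR8. Of 107 peaks, 51 were called (47.7%, against 42% of all peaks), 28 gained and 23 lost, with a median log2 fold change of -0.12. Both gained and lost peaks stood near 10 genes, and IRAK4, TICAM2 and TLR10 had no called peak.

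Of the peaks with the smallest p at each of the 6 leading genes, 3 were lost and 3 were gained, and all of these genes but TRAF6 had called peaks of both directions. A peak 18.8 kb from TNFAIP3, which encodes A20, an inhibitor of NF-kB signaling (chromosome 6, 137846263 to 137847512), fell from 98.3 ± 13.7 to 28.5 ± 7.32 (log2 fold change -1.78 ± 0.17, adjusted p = 1.46e-24 by DESeq2). Peaks in CD36, a co-receptor of TLR2 (log2 fold change -1.53), and 17.5 kb from the kinase gene IRAK1 (-1.28) were also lost. Binding was gained in PIK3AP1, the adaptor BCAP (log2 fold change 1.36), in the kinase gene IRAK2 (1.49), and 27.3 kb from the ubiquitin ligase gene TRAF6, within PRR5L (1.40). Adjusted p-values of these 5 peaks were between 5.42e-14 and 8.31e-09 (DESeq2).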

How the data were processed

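RUNX1 ChIP-seq counts of 12 libraries were analysed (the series has 20 samples; 8 IgG libraries have no column in the table and were not analysed here). As the methods of the study state, reads were aligned with bowtie2 and duplicates removed. Peaks were called with macs2 for each condition and round, filtered for reproducibility between rounds, merged over conditions, and counted with featureCounts. The authors deposited raw read counts for each peak, without normalization. The peak set therefore came from the libraries compared. The deposited peak width in bp was used for levels per kb only.

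The methods name a mouse build and the labels also GRCh38. In the files, 24.4% of peaks lay within 1 kb of a gene end of GRCh38.p14, against 5.48% to 7.61% after shifts of 10 kb to 1 Mb, so coordinates were taken as GRCh38. The RefSeq gene table gives no exons, so none are named.

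All 26642 peaks were fitted with DESeq2 1.42.0 in R 4.3.3 (median-of-ratios size factors, batch as covariate, Benjamini-Hochberg over all peaks), also within each batch and with a genotype by batch term. Size factors centre the fold changes near 0, so a global shift would not be seen. No peak was filtered out. Errors are SD over libraries or SE of the fit, and p-values measure only the spread between libraries of derivatives of a single cell line. Libraries of a group differed by more than sampling noise (chi-square per degree of freedom 1.29 to 2.24, using peaks of 20 or more reads per pair). Alternatives were edgeR 4.0.16, other size factors, thresholds, filters and windows, a fit without batch, a replicate block, centring on the 5 Mb either side, and leaving out each library. The tools were tested on simulated counts. Promoter sequences came from RefSeq, with 8 of 10 genes matched.

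Named for each gene were the peaks with the smallest p, with the highest mean and nearest to an end of the gene. Every called peak was named too, and, in the pathway list, the 6 genes with the smallest p. The members, lists and motifs were chosen with earlier results of these data known.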

Additional observations from a re-analysis of the deposited data

Results flagged for a closer look

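In 60 groups of 6 libraries (30 peaks, 2 genotypes), 2 held a library far from the others of its group, where chance gives about 3. At CD14 peak 4, which overlaps NDUFA2 and IK, control replicate 2 had a normalised read count of 136.8, against a range of 86.7 to 97.9 in the others of its group. At IRAK3 peak 4, inside IRAK3, control replicate 4 had 27.8 (from 16 reads), against 16.9 to 19.6 in the others. Neither peak was called in any of the fits without 1 library.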

How the results depend on the processing

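The 12 calls (3 gained, 9 lost) were identical with edgeR, TMM size factors and total in-peak counts as size factors. No called peak changed direction in any fit. Independent filtering had removed no peak from the main fit, so switching it off could change nothing. The count fell to 4 (2 lost) with a fold change over 2 (17.1% of all peaks). It fell to 5 (3 lost) with an adjusted p under 0.01 (31.6%) or a test against a fold change of 1.1 (29.9%). Requiring at least 10 counts in every library left 23 of the 30 peaks, with 3 called (1 gained, 2 lost), where 32.2% of all peaks left were called. This filter removed the called peaks TLR1/TLR6 peak 1, TLR8 peaks 1 and 3 and CD14 peak 1 untested. Its size factors came from the peaks left, and log2 fold changes rose, from 1.25 to 1.31 at TLR5 peak 2 and from -0.24 to -0.17 at IRAK3 peak 1. Of the 23 peaks, 16 were then below 0. Within 10 kb of the genes, 4 of 13 peaks were called (0 gained, 4 lost), and within 100 kb 18 of 47 (3 gained, 15 lost). Of all peaks, 42% were called (21.3% gained, 20.7% lost). Without 1 library, 7 to 10 of the 30 peaks were called (2 to 3 gained, 4 to 7 lost), and 36.6% to 40.4% of all peaks. Without batch as covariate, CD14 peak 1 was no longer called (11 calls, and 43.8% of all peaks). After regional centring 9 calls were left (41.5% of all peaks). In batch 1, edgeR called 10 peaks (27.3% of all peaks). Without 1 control library of batch 1, DESeq2 called 0 to 3 (0 without control replicate 3, 1 without control replicate 2). Fits that left a single knockdown library in batch 1 are not counted. In batch 2, without 1 library, 3 to 5 were called. The share of all peaks in these single-batch fits without 1 library is not given, so these counts cannot be set against it. The 51 calls of the pathway list became 30 with the replicate block, 29 with the filter for 10 counts (76 peaks left), 19 with a fold change over 2 and 40 to 50 without 1 library. With the replicate number as a block, 4 of the 30 peaks (2 lost) and 27.4% of all peaks were called, but the numbers did not pair the libraries: residuals of same-numbered control and knockdown libraries correlated between -0.19 and 0.10, and 0 of 6 pairs correlated best with each other. Of the peaks without a call, 5 with log2 fold changes near 0 changed sign in some fits of both batches together. Without batch as covariate, CD14 peak 3 (-0.0071), MYD88 peak 2 (0.031) and IRAK3 peak 5 (0.015) did so. With the block, MYD88 peak 1 (0.20) and IRAK3 peak 5 (0.064) did so, with the filter for 10 counts MYD88 peak 2 (0.043) and IRAK3 peak 5 (0.028), and after regional centring CD14 peak 3 (-0.0089) and LY96 peak 2 (0.065). Without 1 library, these log2 fold changes ranged from -0.036 to 0.092 (CD14 peak 3), -0.33 to 0.047 (LY96 peak 2), -0.23 to 0.062 (MYD88 peak 1), -0.095 to 0.061 (MYD88 peak 2) and -0.13 to 0.023 (IRAK3 peak 5). In batch 2 alone, TLR4 peak 1 (0.13) and CD14 peak 4 (0.066) also had the opposite sign to the fit of both batches. The libraries carried a median of 16 to 45 reads over the 30 peaks. This limits what small changes could be detected, most of all at TLR8 peak 3 (1 to 11 reads in controls).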

Other observations

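The nearest peaks beyond the 50 kb limit were looked at after the values above were seen. Of the 9 distinct peaks, 5 were lost, 0 were gained and 4 were not called (DESeq2, adjusted p under 0.05). Of all peaks, 20.7% were lost and 21.3% gained. The regional median log2 fold change was -0.13 around TLR4 and -0.20 around LY96, and values relative to it are not given for these 9 peaks. The peak 52.9 kb from TLR4 (chromosome 9, 117777615 to 117778333) fell from 24.1 ± 3.23 to 7.08 ± 3.42 (SD over 6 libraries each, log2 fold change -1.76 ± 0.31, adjusted p = 1.60e-07 by DESeq2). TLR4 is its nearest protein-coding gene. The peak 69.0 kb from IRAK3 (chromosome 12, 66119498 to 66120217), in LLPH, fell from 25.3 ± 6.05 to 9.06 ± 3.27 (log2 fold change -1.58 ± 0.29, adjusted p = 6.23e-07 by DESeq2). The other 3 lost peaks lay 211.2 kb from TLR2 in TMEM131L, 95 kb from LY96 near UBE2W and 85.6 kb from MYD88 in OXSR1, with log2 fold changes of -0.74, -0.65 and -0.88.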
